A study of Rattus norvegicus with 24 samples.

Results

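Values of 7 genes of cholesterol synthesis and its control were examined in the frontal cortex of rats that had inhaled tungsten particles. The genes are Srebf2, Insig1, Hmgcs1, Idi1, Fdft1, Sqle and Lss, taken by name from the 32883 reference genes that every table lists, and each was found once in all 24 tables. The animals were adult Sprague-Dawley males, 24 in all and 8 per group, and RNA was taken 24 h after exposure. Control rats (libraries 49 to 56) have a labelled aerosol concentration of 0 mg/m3, Low rats (57 to 64) of 5 mg/m3 and High rats (65 to 72) of 80 mg/m3. All groups share strain, sex, tissue and a stranded library preparation from polyadenylated RNA, and no genetic change is labelled. The label for RNA extraction speaks of cell lines of the frontal cortex, whereas the tissue label and the study describe rat tissue.

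Cholesterol is made from acetyl-CoA in a long chain of reactions, first along the mevalonate arm to farnesyl diphosphate and then along the sterol arm through squalene and lanosterol. The brain makes its own cholesterol, since lipoproteins of the blood hardly pass the blood-brain barrier. Much of it lies in the myelin of oligodendrocytes, and in the adult brain astrocytes make cholesterol that neurons take up. The chain is set by SREBP2, the product of Srebf2. When sterols are plentiful, SCAP and the INSIG proteins hold SREBP2 in the endoplasmic reticulum. When sterols are scarce, SREBP2 moves to the Golgi, is cut there, and its released part enters the nucleus and binds sterol regulatory elements in promoters of the pathway, those of Srebf2 and Insig1 included.

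Because these genes share a regulator that acts on promoters, the RefSeq sequence (build GRCr8) of the 250 bases before the annotated start was read for the genes with an entry. Insig1, Hmgcs1, Srebf2, Idi1 and Lss matched, and Sqle and Fdft1 did not. The windows of the regulator Srebf2, of its target and inhibitor Insig1 and of the enzyme gene with the highest level, Hmgcs1, are shown 5′ to 3′ on the strand of the gene. Capitals mark ATTGG, the reverse complement of the letters CCAAT, which nuclear factor Y binds. The window of Srebf2 is chr7:115543057-115543306 on the plus strand, that of Insig1 is chr4:8057770-8058019 on the minus strand and that of Hmgcs1 is chr2:53382054-53382303 on the plus strand.
Srebf2: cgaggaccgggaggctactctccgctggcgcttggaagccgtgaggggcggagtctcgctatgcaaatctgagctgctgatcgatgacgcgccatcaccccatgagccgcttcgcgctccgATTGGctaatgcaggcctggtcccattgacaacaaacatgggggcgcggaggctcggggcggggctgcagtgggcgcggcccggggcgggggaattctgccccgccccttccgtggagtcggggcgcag
Insig1: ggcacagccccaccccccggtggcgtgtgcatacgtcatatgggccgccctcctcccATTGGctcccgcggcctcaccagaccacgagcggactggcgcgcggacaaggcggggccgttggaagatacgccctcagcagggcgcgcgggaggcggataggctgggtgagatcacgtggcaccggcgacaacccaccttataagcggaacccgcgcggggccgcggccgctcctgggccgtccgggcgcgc
Hmgcs1: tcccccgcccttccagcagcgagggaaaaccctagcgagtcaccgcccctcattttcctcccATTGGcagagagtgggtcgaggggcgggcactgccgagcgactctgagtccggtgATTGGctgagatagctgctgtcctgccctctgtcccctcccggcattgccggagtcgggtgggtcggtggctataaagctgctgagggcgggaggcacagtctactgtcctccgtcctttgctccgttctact

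Of 4 sets of letters searched on both strands, CCAAT was found in all 5 windows, with 7 matches, each on the reverse strand. It was chosen after the sequences had been seen, and 34.0% of 33469 windows of the same length in the table hold it. Its matches begin 129 bases before the start of Srebf2, 193 before Insig1, 188 and 133 before Hmgcs1, 66 and 35 before Idi1, and 82 before Lss. The letters TCACNCCA, taken for a sterol regulatory element, were found in the Srebf2 window, 156 bases before its start, and in 3.24% of all windows. CACGTG, an E-box, was found in the Insig1 window, 79 bases before its start, and in 5.59% of all windows. GGGCGG, a GC box that Sp1 binds, was found in 4 of the 5 windows, with Idi1 the exception, and in 30.5% of all windows. No match of a set overlaps a match of another set in these windows, and a match is not measured binding.

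The tables give, for each gene, the coverage, which is the mean read depth per base and so is already per length. Coverage was divided by its sum over the reference genes of the library and multiplied by 1000000, and all levels below are on this scale, called scaled coverage. In units of 1000000, this sum was between 1.67 and 2.82 for Control libraries, 1.64 and 3.07 for Low libraries and 1.77 and 2.67 for High libraries. The tables hold no read counts, so counting error is not known. In the tables, Srebf2 lies on chromosome 7 from 123381077 to 123438603 (+), Insig1 on 4 from 342302 to 350515 (+), Hmgcs1 on 2 from 52431601 to 52445055 (+) and Idi1 on 17 from 57976268 to 57984036 (-). Fdft1 lies on 15 from 46339249 to 46367302 (-), Sqle on 7 from 99609191 to 99624732 (+) and Lss on 20 from 12842884 to 12870497 (-). The labels name the build mRatBN7.2, but positions on chromosome 1 in the tables run to 282724300, past the end of that chromosome in mRatBN7.2, so the build of these positions is not settled and differs from that of the promoter windows. Srebf2 holds the microRNA gene Mir33 on its own strand, so that reads of both cannot be told apart there. Idi1 overlaps Wdr37 on the opposite strand, and the sources used here do not give whether strand was used in the quantification.

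A difference in table type goes with the Low group. Control and High tables also list loci assembled from the reads of that library (46334 to 159573 in Control and 50235 to 64010 in High), and Low tables list 0. In Control and High, a same-strand assembled locus overlapped the member gene in 112 of 112 gene and library pairs, and 67 of them had the same coverage as the gene within 0.1%. Low exposure and table type cannot be told apart, in any comparison of Low with another group. Libraries 56 to 62 (1 Control and 6 Low) stood apart from the rest in an earlier account of these data, by mitochondrial tRNA coverage, and results are given with and without them. The Control against High comparison is free of both differences but for library 56. Whether the 8 rats of a group were exposed or housed together is not labelled, so p-values measure the spread between these rats.

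The defining markers of brain tissue were present. Summed scaled coverage of 8 neuron markers ran from 1913 to 3427 over all rats' ranges, that of 8 astrocyte markers from 2473 to 3933 and that of 8 oligodendrocyte markers from 2631 to 8374. These are tissue RNA levels, so fewer cells of a type and less RNA per cell cannot be told apart.

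Among the 7 genes, levels spanned about an order of magnitude. In Control rats Hmgcs1 was highest at 224 ± 29.4 (SD, n = 8), followed by Srebf2 at 106 ± 15.96, Insig1 at 72.8 ± 8.57, Fdft1 at 54.1 ± 4.53, Sqle at 45.2 ± 4.69, Lss at 26.6 ± 2.64 and Idi1 at 23.99 ± 3.33. Within a rat, each gene was above the next in this order in 24 of 24 rats, except Lss above Idi1 in 21 of 24. Between rats, the Control ranges overlapped for Srebf2 and Insig1, for Fdft1 and Sqle, and for Lss and Idi1, and did not overlap for the other neighbours. Over all rats, Hmgcs1 was at the 96.8 percentile of mean level among the 15644 genes tested, and Idi1 at the 63.1 percentile.

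**Figure D1:**
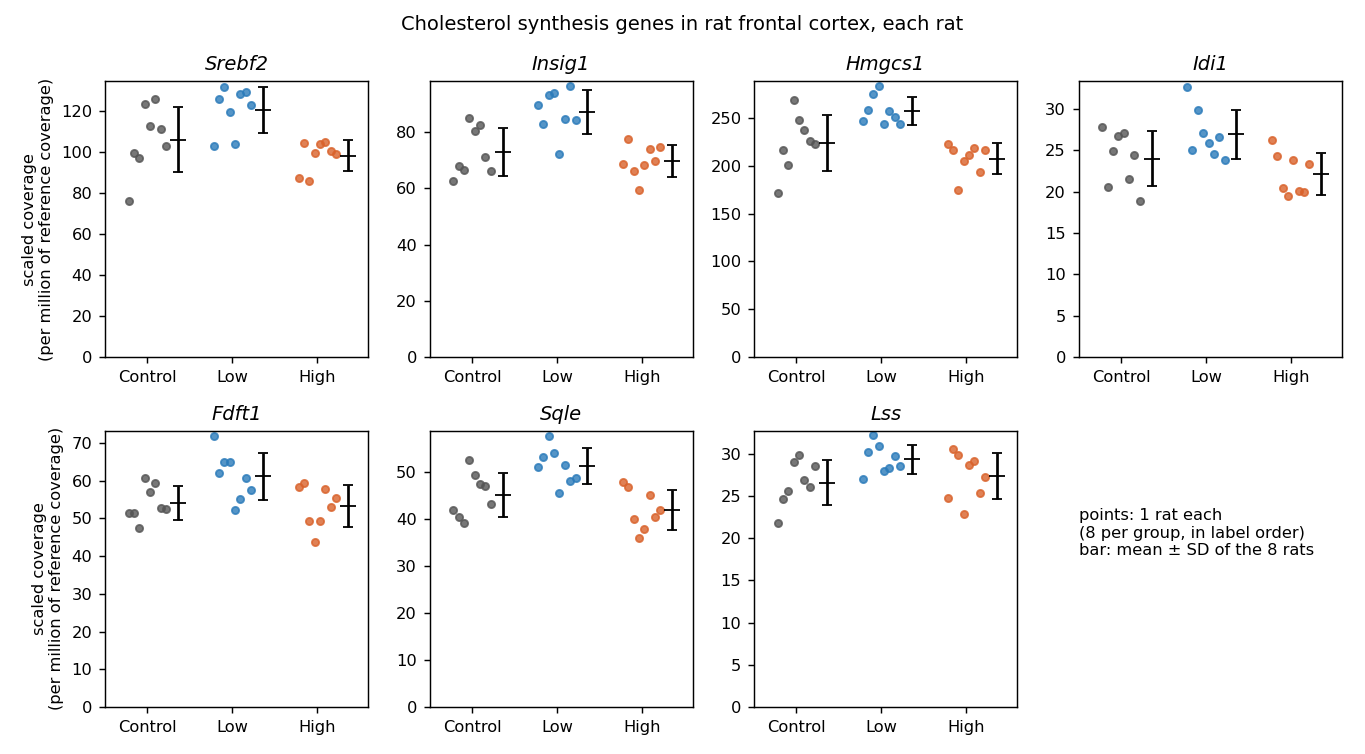
Scaled coverage (vertical axis, per 1000000 of reference coverage) of the 7 genes in each rat, by group (horizontal axis), with 1 point per rat and the mean ± SD of 8 rats beside it. Low rats sit highest on average for every gene, and for Hmgcs1 the lowest Low rat (243) is above the highest High rat (223).

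All 7 genes had a higher mean in Low than in Control, but only Insig1 passed the test (log2 fold change 0.26 ± 0.0711, SE), where 6.11% of all genes tested passed and 1.23% passed as higher. None of the 7 passed in High against Control, where 0% of all genes did. Between the exposure levels, 5 of 7 genes were higher in Low than in High, namely Insig1, Hmgcs1, Sqle, Srebf2 and Idi1, by 0.27 to 0.31 on the log2 scale, where 11.7% of all genes passed and 5.3% passed as higher. Fold changes are differences of log2(scaled coverage + 1), and tests are limma over 15644 genes with Benjamini-Hochberg adjusted p under 0.05. The genes are described below by role, the regulators first and the enzymes in order of the chain.

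Srebf2 encodes the transcription factor itself. Its scaled coverage ranged from 75.9 to 125 in the Control rats around a median of 107, from 103 to 132 in the Low rats around 124, and from 85.6 to 105 in the High rats around 99.8. The groups overlapped, with Control 49 the lowest of all rats, and 6 of 8 Low rats were above the highest High rat. The log2 difference was 0.19 ± 0.0831 for Low against Control (adjusted p 0.205), -0.099 ± 0.0831 for High against Control (adjusted p 0.999) and 0.29 ± 0.0831 for Low against High (adjusted p 0.0226). Srebf2 was thus higher in Low than in High, in 12 of 16 fits that left out a rat. The call was lost without each of Low 59 and 62 and High 65 and 67, with differences of 0.26 to 0.28 and adjusted p of 0.0505 to 0.0525. It was also lost with no filter (adjusted p 0.0621), with no scaling and without libraries 56 to 62. With those libraries as a covariate it was lost at a larger difference (0.34, adjusted p 0.179).

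Insig1 encodes the protein that, with SCAP, holds SREBP2 in the endoplasmic reticulum, and it is itself a target of SREBP2. It ranged from 62.7 to 85.0 in the Control rats around a median of 69.5, from 72.3 to 96.3 in the Low rats around 87.1, and from 59.5 to 77.6 in the High rats around 69.2. All 8 Low rats were above the Control median, and 7 of 8 were above the highest High rat, Low 61 being the exception. Insig1 was higher in Low than in Control by 0.26 ± 0.0711 (1.197-fold, adjusted p 0.0283) and higher in Low than in High by 0.31 ± 0.0711 (1.24-fold, adjusted p 0.00445). In High against Control its difference was -0.056 ± 0.0711 (adjusted p 0.999). The call against High held in 16 of 16 fits that left out a rat, but was lost with no scaling and without libraries 56 to 62. The call against Control held in 9 of the 16 fits that left out a rat of either group. It was lost without each of Control 49, 50, 51 and 55 and Low 57, 59 and 60 (differences 0.23 to 0.26, adjusted p 0.0502 to 0.0642). It was also lost with no filter (adjusted p 0.0734), only the groups compared (adjusted p 0.0720) and the exact Wilcoxon rank-sum test (adjusted p 0.106). No scaling and leaving out libraries 56 to 62 lost it too. With those libraries as a covariate it was lost at a larger difference (0.32, adjusted p 0.0735).

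Hmgcs1 encodes the cytosolic HMG-CoA synthase, which acts at the top of the mevalonate arm. It ranged from 172 to 268 in the Control rats around a median of 224, from 243 to 283 in the Low rats around 254, and from 175 to 223 in the High rats around 214. Every Low rat was above every High rat, and 2 of 8 Low rats were above the highest Control rat. Among all genes tested, 0.262% were without overlap and higher in Low than in High. Hmgcs1 was higher in Low than in High by 0.31 ± 0.0706 (1.24-fold, adjusted p 0.00466), a call that held in 16 of 16 fits that left out a rat. This call was lost with libraries 56 to 62 as a covariate (0.28, adjusted p 0.223), with no scaling and without libraries 56 to 62. The difference was 0.21 ± 0.0706 for Low against Control (adjusted p 0.0859) and -0.10 ± 0.0706 for High against Control (adjusted p 0.999). Without Control 52, Low against Control passed (0.25, adjusted p 0.0356).

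Idi1 encodes the isomerase that makes dimethylallyl diphosphate, the starter unit of isoprenoid chains, and was the lowest of the 7 in Control. It ranged from 18.8 to 27.8 in the Control rats around a median of 24.7, from 23.8 to 32.7 in the Low rats around 26.2, and from 19.4 to 26.3 in the High rats around 21.9. All 3 groups overlapped, and the lowest Control rat was Control 56. Idi1 was higher in Low than in High by 0.27 ± 0.0849 (adjusted p 0.0403), and this call held in 8 of 16 fits that left out a rat. It was lost without each of Low 57, 59, 60 and 63 and High 67, 68, 70 and 71, with differences of 0.23 to 0.27. The call was also lost with median-of-ratios scaling (0.18, adjusted p 0.340), no filter (adjusted p 0.101), nested genes left out of the sum (adjusted p 0.0519) and the exact Wilcoxon rank-sum test (adjusted p 0.0514), as well as with no scaling, with libraries 56 to 62 as a covariate and without these libraries. The difference was 0.17 ± 0.0849 for Low against Control (adjusted p 0.300) and -0.10 ± 0.0849 for High against Control (adjusted p 0.999).

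Fdft1 encodes squalene synthase, the enzyme that commits farnesyl diphosphate to sterols. It ranged from 47.6 to 60.6 in the Control rats around a median of 52.6, from 52.1 to 71.9 in the Low rats around 61.4, and from 43.9 to 59.3 in the High rats around 54.3. The Low rats reached highest, with 5 of 8 above the highest Control rat and 5 of 8 above the highest High rat, but the groups overlapped. Fdft1 did not pass the test in any comparison, with a difference of 0.17 ± 0.0707 for Low against Control (adjusted p 0.175), -0.023 ± 0.0707 for High against Control (adjusted p 0.999) and 0.20 ± 0.0707 for Low against High (adjusted p 0.0703). Without Low 61, the last of these passed (0.23, adjusted p 0.0305).

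Sqle encodes squalene epoxidase, which adds the oxygen that ring closure needs and is a slow, controlled step of the sterol arm. It ranged from 39.2 to 52.5 in the Control rats around a median of 45.1, from 45.6 to 57.8 in the Low rats around 51.3, and from 36.0 to 47.9 in the High rats around 41.2. All 8 Low rats were above the Control median, and 7 of 8 were above the highest High rat. Sqle was higher in Low than in High by 0.28 ± 0.0685 (1.22-fold, adjusted p 0.00746), also in 16 of 16 fits that left out a rat. This call was lost with libraries 56 to 62 as a covariate (0.25, adjusted p 0.261), with no scaling and without libraries 56 to 62. The difference was 0.18 ± 0.0685 for Low against Control (adjusted p 0.135) and -0.10 ± 0.0685 for High against Control (adjusted p 0.999).

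Lss encodes lanosterol synthase, which closes the rings of the first sterol. It ranged from 21.8 to 29.9 in the Control rats around a median of 26.5, from 27.0 to 32.2 in the Low rats around 29.1, and from 22.9 to 30.6 in the High rats around 27.9. The groups overlapped, and 2 of 8 Low rats were above the highest High rat. Lss did not pass the test in any comparison, with a difference of 0.14 ± 0.0661 for Low against Control (adjusted p 0.243), 0.039 ± 0.0661 for High against Control (adjusted p 0.999) and 0.10 ± 0.0661 for Low against High (adjusted p 0.295). It was the gene of the 7 with the smallest difference between Low and High, and the only one with a High mean above the Control mean.

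**Figure D2:**
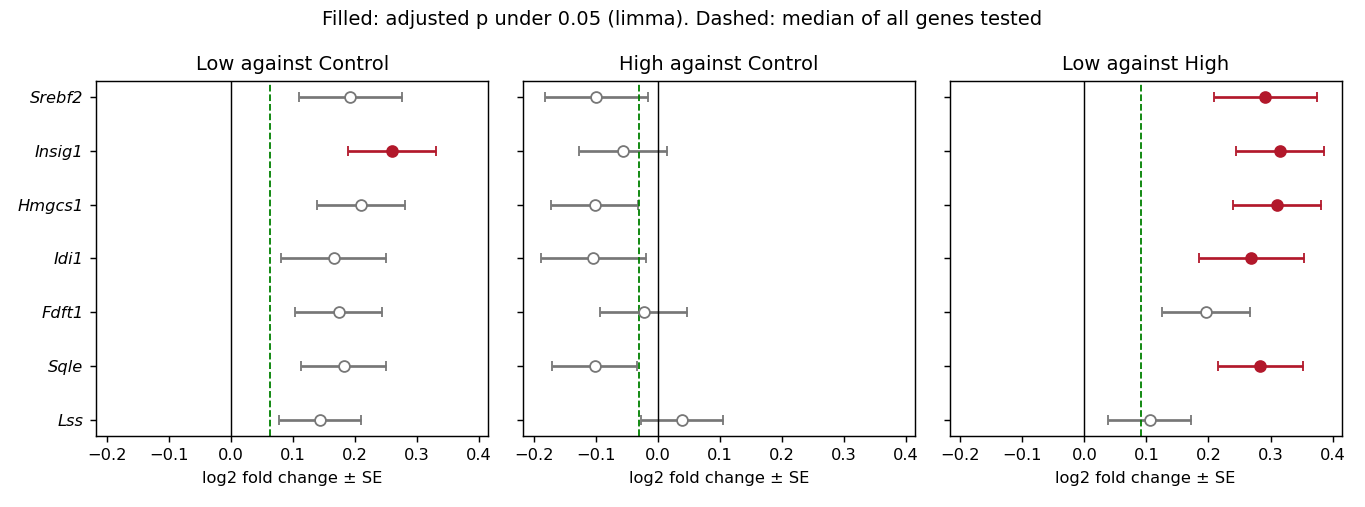
Log2 fold change ± SE (horizontal axis) of the 7 genes (rows) in the 3 comparisons of 8 against 8 rats, with filled points past adjusted p under 0.05 (limma) and a dashed line at the median of all 15644 genes. Insig1 is filled in Low against Control, no gene in High against Control, and 5 genes in Low against High.

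In Low against Control, all 7 differences were above 0, as were 66.5% of those of all genes, with a median of 0.18 for the 7 and 0.062 for all genes. In High against Control, where limma called 0 genes, 2.11% of all genes had an unadjusted p under 0.05, and an exact Wilcoxon rank-sum test also called 0 genes. The 7 had differences of -0.10 to 0.039 there. The 2.11% depends on Control 49, the lowest Control rat for Srebf2, Hmgcs1, Insig1 and Lss. With it, 330 of 15644 genes had an unadjusted limma p under 0.05, and without it 1688 of 15664 did, with 0 called. The median of all genes was then -0.066 instead of -0.031. By the Wilcoxon test, 887 genes had an unadjusted p under 0.05. In Low against High, all 7 differences were above 0, as were 69.9% over all genes. The median difference was 0.28 for the 7 and 0.091 for all genes. These comparisons share groups and are not independent of each other.

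Results were taken again without libraries 56 to 62. Without Low 57 to 62 and Control 56, which leaves 2 Low rats (63 and 64), 0 of 7 genes were called in Low against Control and 0 in Low against High. All differences between Low and High stayed above 0, at 0.37 for Insig1 (adjusted p 0.156), 0.36 for Srebf2 (adjusted p 0.318), 0.26 for Hmgcs1 (adjusted p 0.470), 0.21 for Sqle (adjusted p 0.509), 0.18 for Idi1 (adjusted p 0.564), 0.15 for Fdft1 (adjusted p 0.571) and 0.095 for Lss (adjusted p 0.723). In Low against Control the differences were then 0.29 for Insig1, 0.26 for Srebf2, 0.16 for Hmgcs1, 0.15 for Lss, 0.13 for Fdft1, 0.097 for Sqle and 0.032 for Idi1, the last below the median of all genes (0.069). With these libraries as a covariate, 0 of 7 were called in Low against Control and 1 in Low against High, which was Insig1 (0.39, adjusted p 0.0309). The covariate marks Low 57 to 62 and Control 56, so it is closely tied to the Low group. A call lost with it does not show that the difference went away. In Low 63 and 64 Insig1 measured 96.3 and 84.4, above and within the Control range, and Srebf2 measured 129 and 123.

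How coverage was scaled moved all genes together more than it moved these genes against the rest. With the deposited FPKM values, 7 of 7 genes were called in both Low comparisons. The median of all genes was then 0.53 in Low against Control and 0.52 in Low against High. Of the 13816 genes tested with FPKM, 12393 and 12410 were called. With no scaling, 0 of 7 were called, Fdft1 and Lss were below 0 in Low against High (-0.019 and -0.11), and the median of all genes was -0.12 in Low against High. With median-of-ratios scaling, that median was 0.0029, and 1 of 7 was called in Low against Control and 4 in Low against High. Taken as the distance from the median of all genes, the median of the 7 genes lay at 0.19 in Low against High under the scaling used here. It was 0.19 under median-of-ratios scaling, 0.19 without scaling, 0.20 with FPKM and 0.18 with TPM. The reference sum, median of ratios and no scaling differ only by a factor per library. Such a factor shifts all genes alike on the log2 scale, so agreement among them was fixed in advance, apart from pseudocount and filter. The distance of Lss was 0.014 under the scaling used here, 0.11 with FPKM and 0.097 with TPM. Without libraries 56 to 62, the median distance of the 7 was 0.12. Under the scaling used here, Insig1, Hmgcs1 and Srebf2 were farthest above the median and Lss was closest to it.

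**Figure D3:**
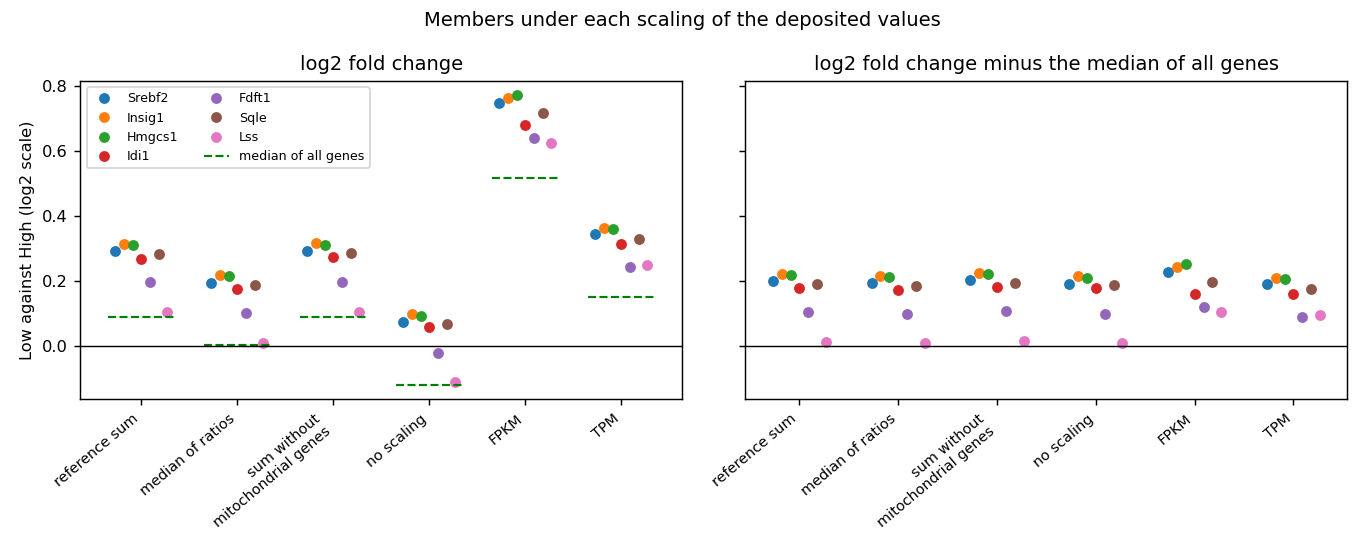
Low against High log2 fold change of the 7 genes (points) under 6 ways of scaling the deposited values (horizontal axis), as measured on the left and as the distance from the median of all genes on the right. On the left the points move with that median (dashed), from -0.12 with no scaling to 0.52 with FPKM. On the right the median distance of the 7 lies between 0.18 with TPM and 0.20 with FPKM. A factor per library cancels on the right, so likeness of the reference sum, median of ratios and no scaling there was fixed in advance.

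Whether the 7 genes differed from each other in their response was examined through their ratios within a rat, a comparison chosen after the values had been seen. Of 63 exact permutation tests (21 ratios in 3 comparisons, two-sided), 6 had an unadjusted p under 0.05 and 0 passed after Benjamini-Hochberg adjustment. The smallest p was for Insig1 over Lss in Low against High, a ratio that was higher in Low by 0.21 on the log2 scale (exact permutation p 0.0028, adjusted p 0.176). Ratios of Srebf2, Hmgcs1 and Sqle over Lss differed by 0.19, 0.20 and 0.18 in the same direction (adjusted p 0.198 each, exact permutation). These data thus gave no passing difference in response among the 7 genes.

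The rest of the pathway was described from lists of 63 gene names, of which 62 were matched (Lbr was not) and 61 were tested. Counting the 7, Low against High had 11 genes higher and 1 lower, and Low against Control had 1 higher and 1 lower. Over all genes tested, 5.3% were called higher and 6.39% lower in Low against High. In Low against Control these shares were 1.23% and 4.88%. High against Control had 0. Of the 54 tested that are not among the 7, 6 were higher in Low than in High and 1 was lower, with a median difference of 0.15 against 0.091 over all genes. Those higher included Cyp51, Sc5d, Msmo1 and Mylip, and the lower gene was Tm7sf2. Leaving out a rat kept the calls of Cyp51, Sc5d and Tm7sf2 in 16 of 16 fits. With median-of-ratios scaling, Cyp51 (0.15, adjusted p 0.0719), Mylip (0.23, adjusted p 0.0671) and Msmo1 (0.082, adjusted p 0.471) were not called. With libraries 56 to 62 as a covariate, Cyp51 (0.20, adjusted p 0.312) and Sc5d (0.24, adjusted p 0.247) were not called. Nor were Msmo1 (0.15, adjusted p 0.416) and Mylip (0.33, adjusted p 0.298). With no scaling none of these 4 was called. Without libraries 56 to 62, these 4 were not called either. Tm7sf2 was called, lower in Low, under every alternative run. The call of Msmo1 was lost in 10 of 16, without each of Low 57, 59, 60 and 62 and High 67 to 72, and that of Mylip in 6 of 16, without each of Low 59 and 62 and High 65, 66, 67 and 72 (adjusted p up to 0.0901).

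Of the 8 mevalonate arm enzymes, 3 were higher in Low than in High, where 5.3% of all genes were. The median difference was 0.20. Hmgcs1 and Idi1 are among the 3. Fdps, which makes farnesyl diphosphate, stood at 107 ± 10.9 in Low and 101 ± 7.84 in High (difference 0.076, adjusted p 0.480). It overlaps a U6 gene on the same strand.

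Of the 12 sterol arm enzymes tested, 5 were higher in Low than in High and 1 was lower, where 5.3% and 6.39% of all genes were. Cyp51 encodes the lanosterol demethylase. It measured 88.0 to 117 among Control rats, 105 to 120 among Low rats and 83.7 to 100.2 among High rats, with every Low rat above every High rat, and was higher by 0.25 ± 0.0611 (adjusted p 0.00890). Sc5d, a desaturase of the last steps, also had no overlap (57.9 to 68.6 in Low and 51.0 to 57.9 in High, difference 0.25, adjusted p 0.0124), though its closest Low and High rats differ little. Msmo1, a methyl oxidase, was higher by 0.18 (adjusted p 0.0410). Dhcr7, the last reductase of the chain, had a difference of 0.15 that did not pass (adjusted p 0.195).

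Tm7sf2, which encodes a sterol C14 reductase, went the other way. It measured 18.7 to 23.9 among Control rats, 9.78 to 12.2 among Low rats and 17.7 to 23.6 among High rats, so that every Low rat was below every rat of the other groups. The difference was -0.82 ± 0.0665 against Control (adjusted p 5.85e-10) and -0.80 ± 0.0665 against High (adjusted p 9.58e-10). Tm7sf2 overlaps Vps51 on the same strand, and over all genes 4.88% were called lower in Low than in Control and 6.39% lower than in High. Without overlap and lower in Low were 1.44% of genes against Control and 2% against High. Low tables are of the other table type, and the part of this overlap in the result was not tested.

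Of the 7 regulators of SREBP, 2 were higher in Low than in High, where 5.3% of all genes were, and both are described above. Srebf1, the gene of the related SREBP1 that favours fatty acid genes, had a difference of 0.17 ± 0.103 (adjusted p 0.284). Scap, the escort of SREBP, had 0.16 ± 0.0661 (adjusted p 0.118). Insig2, which unlike Insig1 is not a strong target of SREBP2, had 0.10 ± 0.0920 (adjusted p 0.469). Srebf1 overlaps Rai1 and Scap overlaps AABR07071500.1, both on the opposite strand.

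Of 8 tested genes of cholesterol uptake and transfer, 1 was higher in Low than in High, where 5.3% of all genes were. It was Mylip, a ubiquitin ligase that acts on lipoprotein receptors, at 13.2 ± 2.33 in Low and 10.4 ± 1.56 in High (difference 0.32, adjusted p 0.0298). Mylip is known as a target of LXR and not of SREBP2. None of 10 genes of export and conversion passed (median difference 0.011), and none of 8 genes of the non-sterol isoprenoid branch did (median 0.087). None of 8 genes of fatty acid synthesis passed either, although all 8 differences were above 0 (median 0.21).

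**Figure D4:**
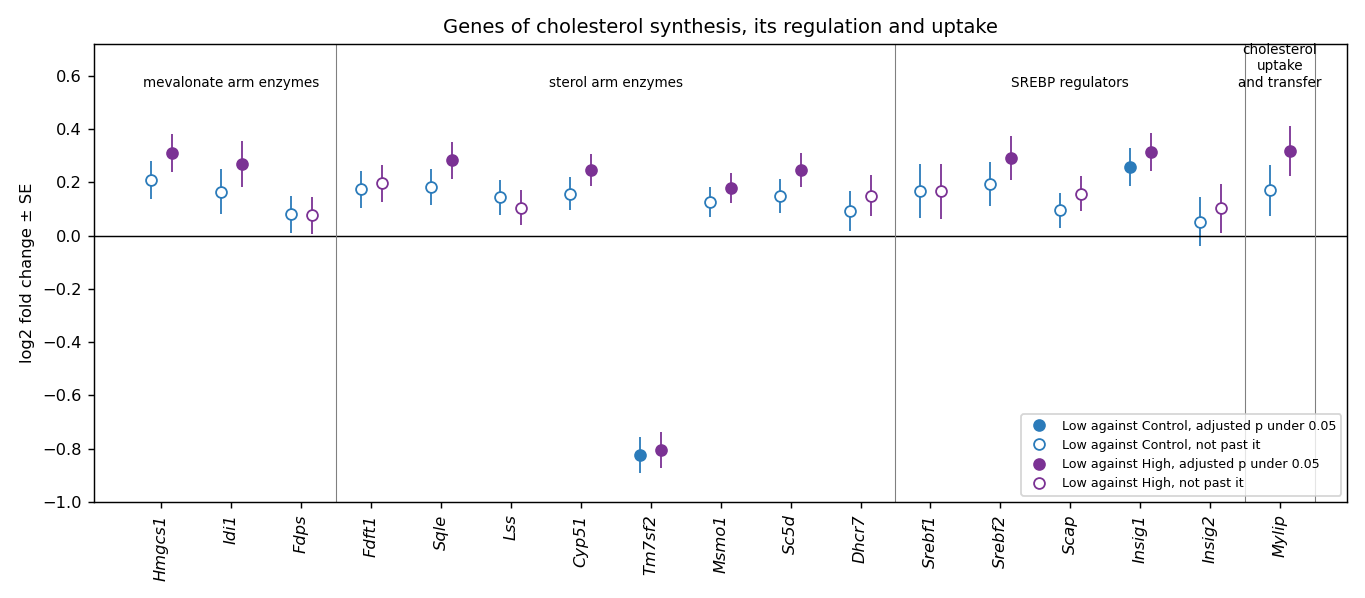
Log2 fold change ± SE (vertical axis) of the genes of cholesterol synthesis, its regulators and uptake named here (horizontal axis, by list), for Low against Control (blue) and Low against High (purple), with filled points past adjusted p under 0.05 (limma). Most points lie above 0, and Tm7sf2 lies at -0.82 and -0.80.

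Marker lists of other cell types gave few calls in the comparisons. Of the markers of astrocytes, oligodendrocytes, their precursors, neurons, microglia, choroid plexus, striatum and blood, 0 were called in any comparison, and of the 3 endothelium markers tested 1 (Slco1a4) was higher in Low than in High. All 8 oligodendrocyte markers had a higher mean in Low than in High, with a median difference of 0.23, and their summed level was 4437 to 8374 in Low (median 5936), 2631 to 6668 in High (median 5219) and 4106 to 5963 in Control (median 5404). Of 8 astrocyte markers, 5 had a higher mean in Low than in High, with sums of 2979 to 3685 in Low and 2473 to 3341 in High. Of 8 neuron markers, 6 did, with sums of 2523 to 3427 in Low and 1913 to 3251 in High. Over all genes tested, 69.9% of the differences between Low and High were above 0, with a median of 0.091. The counts for astrocyte and neuron markers are near that share. Endothelium markers summed to 79.2 to 99.4 in Low and 61.2 to 83.9 in High, and Cldn5, a defining marker of this type, was listed at 0 in 6 Control, 8 Low and 5 High rats. Choroid plexus markers summed to 4.67 to 72.2 among Control rats (median 8.91), 5.34 to 15.2 among Low rats and 4.53 to 30.2 among High rats. The 7 striatum markers and the 4 blood markers all had a lower mean log2 level in Low than in either other group, and 0 of them passed the test. The median difference of the striatum markers was -0.57 against Control and -0.22 against High, with sums of 425 to 966 among Control rats, 295 to 708 among Low rats and 208 to 1567 among High rats. That of the blood markers was -0.27 and -0.19, with sums of 757 to 1666, 460 to 1371 and 549 to 1750. The part of cell makeup in the differences of the 7 genes was not tested.

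Under the scaling used here, most pairs of the 7 genes varied together among rats of the same group. With median-of-ratios scaling, or without mitochondrial genes in the sum, only a minority did, as given below. Deviations of log2(scaled coverage + 1) from the group mean were correlated over 24 rats, with permutation tests that shuffled rats within groups (100000 shuffles, two-sided). Of the 21 pairs, 13 passed by Pearson's r and 14 by Spearman's rho after adjustment, and 19 had r above 0, with a median r of 0.54. Correlation was common under this scaling, since 89.8% of all genes tested had r above 0 with the mean pattern of the 7, and pairs of other genes were not counted. Without the 2 rats farthest from the median on the first gene of each pair, the median r was 0.48, with a range of 0.11 to 0.77.

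The closest pair was Sqle and Fdft1, neighbours in the chain around squalene (r 0.82, adjusted permutation p 0.00021, rho 0.82, adjusted permutation p 0.00021). Without the 2 farthest rats r was 0.77, and within groups it was 0.91 in Control, 0.61 in Low and 0.95 in High. Insig1 and Fdft1 followed (r 0.80, rho 0.81, adjusted permutation p 0.00021 for each, and 0.75 without the 2 farthest rats). Srebf2 and Hmgcs1 had r 0.76 (adjusted permutation p 0.0016) and rho 0.62 (adjusted permutation p 0.00885), with 0.94 in Control but 0.45 in Low and 0.46 in High. Idi1 had the fewest passing pairs, since 5 of its 6 did not pass. Its r with Srebf2 was -0.22 (adjusted permutation p 0.401) and turned to 0.11 without the 2 farthest rats. Its r with Lss was -0.0059 (adjusted permutation p 0.980) and 0.18 without the 2 farthest rats. Idi1 and Fdft1 was the pair that passed (r 0.47, adjusted permutation p 0.0411, rho 0.47, adjusted permutation p 0.0416), with 0.40 without the 2 farthest rats.

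**Figure D5:**
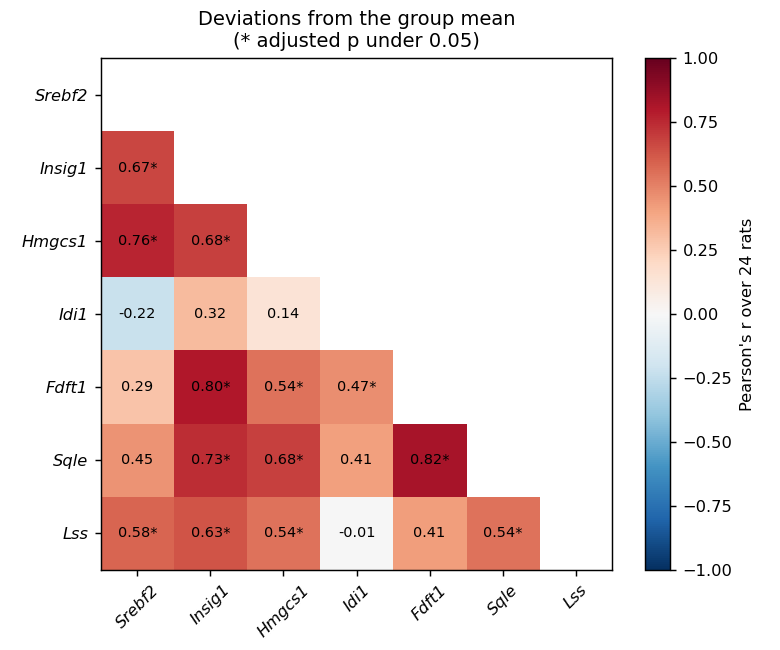
Pearson's r over 24 rats between the deviations of 2 genes from their group means, on a colour scale from -1 to 1, with an asterisk where the adjusted permutation p is under 0.05. The highest value is 0.82 for Sqle and Fdft1, and Idi1 has an asterisk with Fdft1 alone.

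These correlations share the scaling of each library. The mitochondrial share of reference coverage lay between 22.1 and 30.0% in Control rats, 21.8 and 33.8% in Low rats and 22.5 and 27.8% in High rats. Low 61, with 33.8%, was the lowest Low rat for Insig1, Fdft1 and Sqle, and High 68, with 27.8%, was the lowest High rat for Insig1, Idi1, Fdft1, Sqle and Lss. For the other genes the lowest were Low 57 (25.9%), Low 64 (23.7%) and High 67 (27.0%). Control 51, with 30.0%, was the lowest Control rat for Fdft1 and Sqle. Control 49 (26.4%) was lowest for Srebf2, Insig1, Hmgcs1 and Lss, and Control 56 (27.7%) for Idi1. A link of this share with the levels was not tested. With mitochondrial genes left out of the sum, 6 of 21 pairs passed (median r 0.44), and with median-of-ratios scaling 7 did (median r 0.39). With libraries 56 to 62 as a covariate, 14 did (median r 0.53).

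Over all genes tested, the pattern of the 7 among rats, taken as the mean of their z scores of deviations from group means, had a median r of 0.32 over 24 rats, with 17.0% of genes above 0.5. Among the 5 genes most like it that are not among the 7 were Atf6b (r 0.85), Tmem200c (r 0.81), Tnpo3 (r 0.80) and Ppp2r5b (r 0.80). Of the 7, which are part of the mean, Insig1 had 0.92, Sqle 0.89, Hmgcs1 and Fdft1 0.83 each, Lss 0.71, Srebf2 0.67 and Idi1 0.40. Of the other pathway genes named here, r was 0.76 for Dhcr7, 0.75 for Cyp51, 0.73 for Msmo1, 0.65 for Scap, 0.63 for Sc5d, 0.58 for Fdps, 0.52 for Insig2, 0.34 for Srebf1, 0.30 for Mylip and 0.032 for Tm7sf2. The last 2 were below the median of all genes. All of these values share the library scaling and are descriptions over the same 24 rats.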

How the data were processed

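The authors trimmed, aligned and quantified the reads and deposited a StringTie gene table for each of the 24 rats. Tools named in the submitters' processing notes are FastQC, Trimmomatic, TopHat2 and StringTie, whose versions the sources used here do not give, and the notes name the build mRatBN7.2. The deposited coverage is an unscaled signal in mean reads per base. FPKM and TPM, also deposited, were normalized by StringTie per length and per library, and in the Control and High tables the TPM column is not a TPM in the usual sense, since assembled loci and reference genes together exceed its total, so it was treated there as a score from the deposited tables.

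From these, coverage was summed per reference gene, divided by the library's sum over reference genes and expressed per 1000000. The filter kept 15644 of 32883 genes, those whose mean over 24 rats reached 1, and these were tested with limma 3.58.1 (trend, robust) in R 4.3.3 on log2(value + 1), with the 3 groups in 1 fit, two-sided, adjusted by Benjamini-Hochberg over all genes tested. Correlations between genes and the limma fit were tested on simulated data. In the simulated Low against Control, limma recovered 3 of 50 genes changed by 0.25 on the log2 scale and 28 of 50 changed by 0.5. These genes were drawn from all genes tested, with their spread. A gene that did not pass is therefore not shown to be unchanged. Tables were handled in Python 3.11.15 with pandas 2.3.3 and numpy 2.4.6, and permutation tests used numpy. Ranks used scipy 1.17.1, adjustment used statsmodels 0.14.6 and plots used matplotlib 3.10.9. Groups come from the sample labels. Genes named are the 7, further genes of the pathway fixed by name (Cyp51, Dhcr7, Fdps, Msmo1, Srebf1, Scap and Insig2), up to 10 others of the lists per comparison that passed, by smallest adjusted p, and the 5 genes outside the 7 most like them. Values of some genes that this rule names are not reported here, while counts and medians over the lists include them. The genes and lists were chosen with earlier results of these data known. The depth in reads is unknown, so no counting interval is given.

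Alternatives were a pseudocount of 0.1, a minimum mean of 5 or none, no scaling, median-of-ratios scaling, mitochondrial genes left out of the sum, the FPKM and TPM columns, only the groups compared, libraries 56 to 62 as a covariate, exact Wilcoxon rank-sum tests and each rat left out. Leaving 1806 genes nested in a same-strand gene out of the sum, with or without mitochondrial genes, and leaving out Low 57 to 62 and Control 56 were chosen after seeing the data. Promoter sequences are from RefSeq on GRCr8.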

Additional observations from a re-analysis of the deposited data

Results flagged for a closer look

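A rat far from the others of its group was found for Mylip in High 69, at 13.7 against 8.88 to 11.1 in the other High rats, and for Tm7sf2 in Control 49, at 23.9 against 18.7 to 20.6. Of 51 sets of values examined, 2 stood out in this way, and chance gives about 2.55.

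The effect of Low exposure differed from that of High exposure, each against the same Control rats, for 10 genes named here by limma (adjusted p under 0.05). The test of the difference is Low against High itself. Of the 7 genes, the difference was 0.31 for Hmgcs1, 0.31 for Insig1, 0.28 for Sqle, 0.29 for Srebf2 and 0.27 for Idi1. Among other genes of the pathway it was 0.32 for Mylip, 0.25 for Cyp51, 0.25 for Sc5d, 0.18 for Msmo1 and -0.80 for Tm7sf2. Table type cannot be told apart from Low exposure in any of these.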

How the results depend on the processing

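Counts of the 7 genes called were 1 in Low against Control and 5 in Low against High, and those of the pathway genes tested were 2 and 12. Over all genes tested, 6.11% and 11.7% were called under the scaling and filter used here. In Low against Control, calls over all genes were 1759 of 16241 without mitochondrial genes and 1429 of 16281 without nested and mitochondrial genes. They were 12393 of 13816 with FPKM and 3952 of 15587 with TPM, so nearly all genes were called with FPKM. In Low against High they were 12410 of 13816 with FPKM, 3927 of 15587 with TPM and 1656 of 15632 with median-of-ratios scaling. In Low against Control, the 7 gave 0 with no filter, no scaling, only the groups compared, libraries 56 to 62 as covariate, those libraries left out or Wilcoxon tests, 5 without mitochondrial genes in the sum, 3 without nested and mitochondrial genes, 7 with FPKM and 6 with TPM. The pathway genes gave 1 with no filter, no scaling, only the groups compared, the covariate or Wilcoxon tests, 10 without mitochondrial genes, 4 without nested and mitochondrial genes, 59 with FPKM and 19 with TPM. In Low against High, the 7 gave 3 with no filter, 0 with no scaling, 1 with the covariate and 0 without libraries 56 to 62, and the pathway genes gave 6, 1, 2 and 2 there, 59 with FPKM, 22 with TPM and 8 with median-of-ratios scaling. Leaving out each rat gave 0 to 2 of the 7 in Low against Control and 3 to 6 in Low against High (3 without Low 59 or High 67), and 1 to 3 and 6 to 18 pathway genes. The pathway count in Low against High was 6 without Low 59 or High 67, 7 without Low 62 and 18 without Low 61. In Low against Control, the 7 gave 2 without Control 52 and 0 without Control 49, 50, 51 or 55 or Low 57, 59 or 60, and the pathway genes gave 3 without Control 52 or Low 62 and 1 without Control 49, 50, 51 or 55 or Low 57 or 60. High against Control gave 0 of the 7 and 0 pathway genes under every alternative run. Pairs that varied together numbered 13, against 21 with no scaling, 7 with median-of-ratios scaling, 6 without mitochondrial genes and 10 to 15 with each rat left out. The cause of these changes was not tested, except that FPKM and no scaling shift all genes together and that leaving out libraries 56 to 62 leaves 2 Low rats.

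The signs that turned belonged to differences that had not passed in any case but that of Msmo1 in Low against High. With no scaling, High against Control was 0.084 for Srebf2, 0.082 for Hmgcs1, 0.079 for Sqle, 0.13 for Insig1, 0.074 for Idi1, 0.16 for Fdft1, 0.094 for Cyp51, 0.12 for Dhcr7, 0.13 for Msmo1, 0.12 for Scap, 0.13 for Insig2, 0.022 for Mylip, 0.083 for Sc5d and 0.16 for Tm7sf2, and Low against High was -0.019 for Fdft1, -0.11 for Lss, -0.058 for Dhcr7, -0.14 for Fdps, -0.039 for Msmo1, -0.046 for Srebf1, -0.059 for Scap and -0.11 for Insig2. With median-of-ratios scaling, High against Control was 0.014 for Fdft1 and 0.016 for Tm7sf2, Low against Control was -0.0043 for Insig2 and Low against High was -0.020 for Fdps. High against Control was 0.025 for Fdft1 and 0.025 for Tm7sf2 with FPKM, 0.025 for Fdft1 and 0.027 for Tm7sf2 with TPM, 0.0011 for Fdft1 and 0.0037 for Tm7sf2 without mitochondrial genes, 0.00013 for Fdft1 and 0.0028 for Tm7sf2 without nested and mitochondrial genes, -0.00039 for Srebf1 without nested genes and -0.0076 for Fdps with the covariate. Without libraries 56 to 62, the difference was -0.023 for Fdps in High against Control and -0.0060 for Dhcr7 in Low against Control. With each rat left out, High against Control ran from -0.048 to 0.016 for Fdft1, -0.023 to 0.040 for Fdps, -0.054 to 0.046 for Srebf1 and -0.055 to 0.017 for Tm7sf2.

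A fit that adds assembled loci to the genes had been listed and was not kept. Overlapping loci had the coverage of the gene within 0.1% in 67 of 112 gene and library pairs, with 1 for Srebf2 and 1 for Hmgcs1. Where a locus and a gene share reads, the sum counts them again, in Control and High only. Which reads the loci hold was not examined. No paired analysis was possible because the groups share no library numbers. The tables give no read counts, so what depth limits could not be worked out.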
